A study of Arabidopsis thaliana with 18 samples.

Results

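Glucosinolates are sulfur-rich defence compounds of Arabidopsis and its relatives, and the genes that make and break them are known for variation between natural accessions (ecotypes). A set of loci was chosen by locus identifier and followed across the ecotypes Columbia (Col) and Landsberg erecta (Ler). They were MAM1 (AT5G23010), MAM3 (AT5G23020), AOP2 (AT4G03060), AOP3 (AT4G03050), ESP (AT1G54040), ESM1 (AT3G14210), CYP79F1 (AT1G16410), CYP83A1 (AT4G13770), CYP79B2 (AT4G39950) and CYP83B1 (AT4G31500). These 10 genes were among 32852 features listed for every library. They were chosen as known natural-variation loci and pathway genes. The rule itself uses no measured value, but the choice was made with earlier results of these data known.

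RNA sequencing was done on root apices of wild-type seedlings, with 3 libraries in each of 6 groups, namely each ecotype at 0, 1 and 2 h. Seedlings of both ecotypes grew on nylon mesh on medium with phosphate. The 1 h and 2 h groups were then moved to medium without phosphate. For the 0 h groups the treatment field says untreated, while the protocol describes a move to fresh medium that still held phosphate. No library kept on phosphate for 1 or 2 h was analysed here, so time, transfer and phosphate removal cannot be told apart. The design text calls the libraries biological replicates without saying whether they came from separate cultures, so p-values measure the spread between these samples, which may be technical.

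Aliphatic glucosinolates are made from methionine, whose side chain is first lengthened in the chloroplast. Indole glucosinolates are made from tryptophan. In each branch a cytochrome P450 of the CYP79 family turns the amino acid into an aldoxime and one of the CYP83 family oxidises the aldoxime further, after which the core structure is completed and the side chain may be modified. When tissue is damaged, enzymes called myrosinases cut the glucosinolate, and specifier proteins steer the product towards nitriles, epithionitriles or isothiocyanates. In leaves, the MAM, AOP and ESP loci are classic sites of natural variation in which compounds a plant accumulates.

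Positions are from the RefSeq annotation of the assembly TAIR10.1. The submitters' processing notes name TAIR10, and the count files carry no coordinates. MAM1 (chromosome 5, 7703041 to 7706973, plus strand) and MAM3 (chromosome 5, 7718118 to 7721866, plus strand) are neighbours. AOP3 (chromosome 4, 1343845 to 1346436, plus strand) and AOP2 (chromosome 4, 1351688 to 1354096, minus strand) also lie side by side. RefSeq classes AOP2 in this Col-based reference as a transcribed pseudogene and the other 9 loci as protein-coding. CYP83A1 (7990429 to 7992429, minus strand), CYP83B1 (15273410 to 15275404, minus strand) and CYP79B2 (18525042 to 18527602, plus strand) are on chromosome 4 as well. CYP79F1 (5608682 to 5612064, plus strand) and ESP (20170715 to 20173949, minus strand) are on chromosome 1, and ESM1 (4729399 to 4731847, plus strand) is on chromosome 3.

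The 250 bases before the annotated start are shown for AOP2 and AOP3, the neighbouring pair with opposite ecotype patterns below, and for CYP83A1, which held the only G-box of the 10 genes. They are reference (Col) sequence from TAIR10.1, written 5′ to 3′ on the strand of the gene, at chr4:1354097-1354346 (minus strand) for AOP2, chr4:1343595-1343844 (plus strand) for AOP3 and chr4:7992430-7992679 (minus strand) for CYP83A1. Capitals mark the G-box CACGTG, which reads the same on both strands and is the letter pattern bound by MYC-type factors.
AOP2: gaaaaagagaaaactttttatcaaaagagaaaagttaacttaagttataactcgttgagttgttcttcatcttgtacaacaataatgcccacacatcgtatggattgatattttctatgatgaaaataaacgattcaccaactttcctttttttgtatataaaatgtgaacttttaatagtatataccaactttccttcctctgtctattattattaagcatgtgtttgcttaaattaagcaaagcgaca
AOP3: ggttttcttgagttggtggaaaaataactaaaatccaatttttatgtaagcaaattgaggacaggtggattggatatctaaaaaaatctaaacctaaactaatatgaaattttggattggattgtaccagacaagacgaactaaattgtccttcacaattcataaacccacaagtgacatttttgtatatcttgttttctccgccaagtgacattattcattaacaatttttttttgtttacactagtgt
CYP83A1: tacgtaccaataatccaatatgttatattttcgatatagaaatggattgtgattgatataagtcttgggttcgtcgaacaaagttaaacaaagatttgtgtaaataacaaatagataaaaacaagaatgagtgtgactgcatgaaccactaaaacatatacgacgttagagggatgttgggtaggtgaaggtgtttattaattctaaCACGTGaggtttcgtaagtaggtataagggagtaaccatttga
The G-box of CYP83A1 begins 43 bases before the start. CACGTG occurred in 1780 of 27443 promoters of the same length, or 6.49%. The looser pattern CANNTG, which includes CACGTG, occurred in 55.32% of them. A match describes the letters of the Col reference only, and the Ler sequence was not analysed here.

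Total counts ran from 23451068 to 29277597 in Col and from 23755413 to 28031291 in Ler. A count of 0 in a library allows up to 0.102 to 0.131 CPM (reads scaled to library size), taking 3 counts as the floor and covering counting error only. Of 10 root apex markers, 9 or 10 reached 1 CPM in at least 1 library of each group. Their sum was 474 to 753 CPM in Col and 350 to 512 CPM in Ler. The largest part was CASP1, which averaged 297 CPM in Col and 154 CPM in Ler. Markers of green shoot tissue were also present, and 4 or 5 of 6 reached 1 CPM by the same measure. Reaching 1 CPM therefore does not tell these tissues apart. The sum over the 6 genes was 20.5 to 84.2 CPM in Col and 36.9 to 148 CPM in Ler. Averaged over times, 3 of these 6 passed the test as higher in Ler, as did 16.5% of all features. The median log2 difference over the 6 was 0.69. All 6 had negative log2 differences at 1 h and at 2 h against 0 h averaged over ecotypes. Of these, 1 passed the test at each time, where 10.0% and 4.32% of all features passed as lower. The part of these markers in the ecotype differences below was not tested. FAMA, a regulator of guard cells and myrosin cells, had 0 counts in all 18 libraries.

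**Figure D1:**
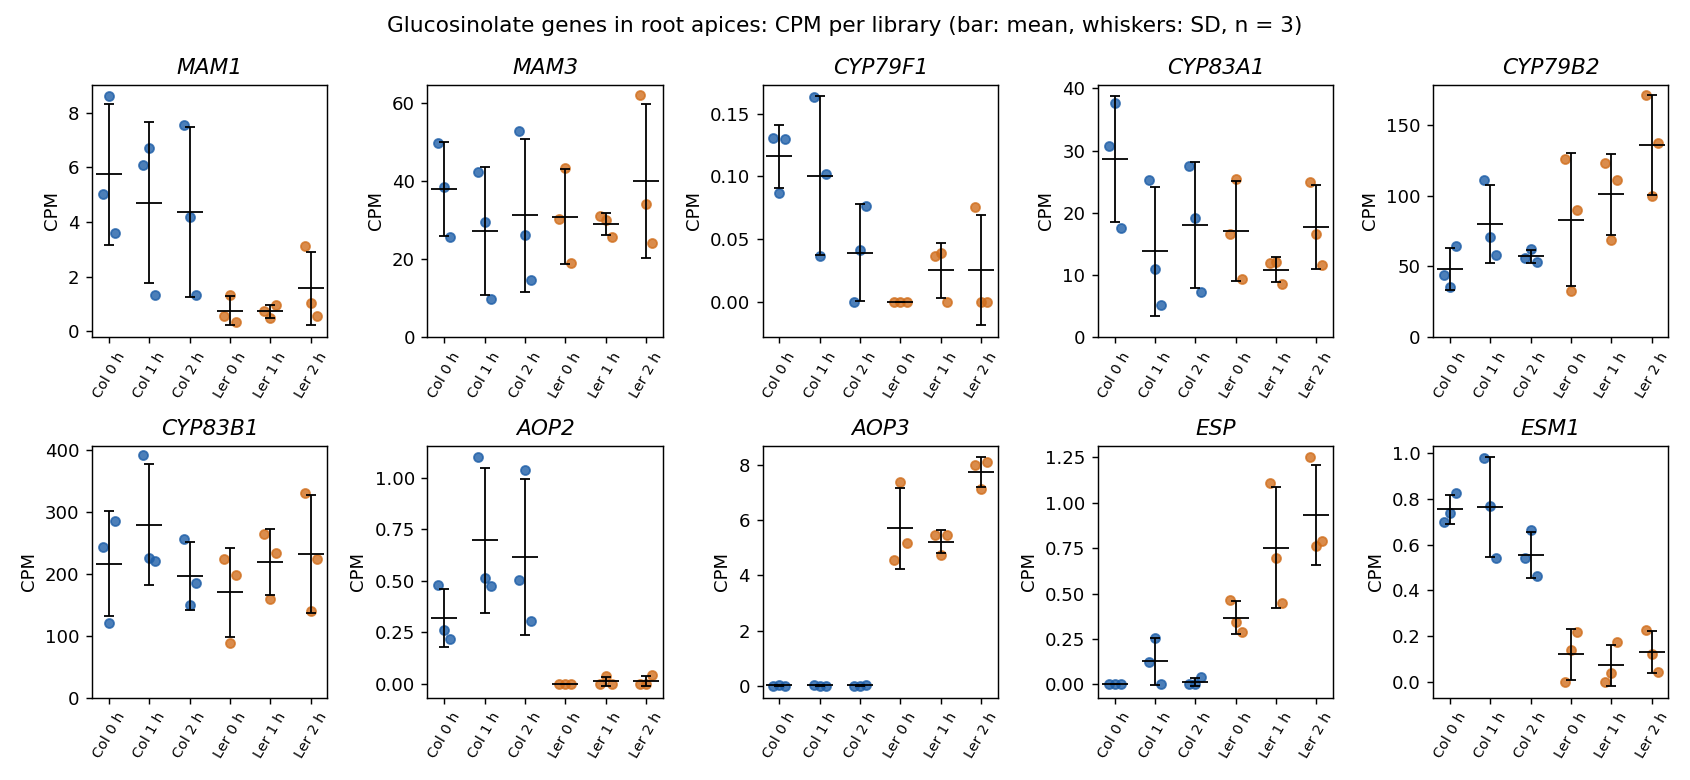
Each panel plots 1 gene, with CPM on a linear vertical axis of its own and the 6 groups along the horizontal axis. Points are libraries, bars are group means and whiskers are SDs (n = 3). AOP3 lies between 4.55 and 8.10 CPM in Ler and at or below 0.0434 CPM in Col, AOP2 shows the opposite order at lower levels, and MAM3 and CYP83B1 overlap between ecotypes.

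The genes covered a wide range of levels. Per kilobase of exon, CYP83B1 was highest, with a mean of 121 ± 41.8 CPM per kb in Col and 109 ± 37.5 in Ler (SD, n = 9 libraries each). CYP79B2 followed with 28.8 ± 9.96 in Col and 49.9 ± 18.8 in Ler, then MAM3 with 17.5 ± 8.15 and 18.1 ± 6.97, and CYP83A1 with 10.5 ± 5.80 and 7.96 ± 3.30 CPM per kb. The ranges of MAM3 and CYP83A1 overlapped. The other 6 genes were below these in both ecotypes. MAM1 averaged 2.41 ± 1.26 CPM per kb in Col and AOP3 3.45 ± 0.788 CPM per kb in Ler. AOP2, ESM1, ESP and CYP79F1 averaged below 0.5 CPM per kb in both ecotypes.

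Between the ecotypes, AOP3, ESP and CYP79B2 were higher in Ler, and AOP2, ESM1 and MAM1 were higher in Col, when the 3 times were averaged. Those 6 were the genes past the threshold, a Benjamini-Hochberg adjusted p under 0.05 in edgeR's quasi-likelihood test over 20599 features. Of all features tested, 32.7% passed in the same comparison. Of the other loci, MAM3, CYP83A1 and CYP83B1 did not pass the test, and CYP79F1 had too few counts to be tested in edgeR. A second method, DESeq2, did test CYP79F1 in this comparison and called the same 6 genes without it. Genes at very low level in 1 ecotype passed the filter on low counts through the other ecotype, so the count of 6 is a description. In bulk tissue, fewer cells of a type and less RNA per cell cannot be told apart. The sequence against which Ler reads were counted is not given in the sources used here, so an ecotype difference and a difference in how well reads match the counted sequence cannot be told apart.

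MAM1 and MAM3 encode methylthioalkylmalate synthases, which carry out the condensing step of methionine chain elongation. MAM1 had 5.03, 8.60 and 3.61 CPM in Col at 0 h, 6.09, 6.72 and 1.32 CPM at 1 h, and 7.57, 4.19 and 1.34 CPM at 2 h. In Ler it had 0.583, 1.35 and 0.328 CPM at 0 h, 0.740, 0.504 and 0.968 CPM at 1 h, and 3.11, 1.04 and 0.569 CPM at 2 h. The ecotypes were separate at 0 h and 1 h and overlapped at 2 h, where the highest Ler library exceeded the lowest Col library. Averaged over times, MAM1 was lower in Ler by a log2 difference of -2.34 (SE 0.43, edgeR adjusted p 0.00053). The log2 difference was -2.91 at 0 h (SE 0.77, adjusted p 0.0152), -2.66 at 1 h (SE 0.76, adjusted p 0.0286) and -1.46 at 2 h (SE 0.72, adjusted p 0.195). The 2 h value ranged from -2.42, without Ler library 1 of that time, to -0.80, without Col library 1 of that time, and passed in 0 of the 18 fits that left out 1 library. The 1 h call was lost in 5 of those fits, with adjusted p from 0.0664 to 0.113 in edgeR. It was lost without Col library 1 or 2 or any of the Ler libraries at 1 h. The 0 h call was lost without Ler library 3 (adjusted p 0.075). The change of the ecotype difference from 0 h to 2 h was itself not past the threshold (log2 1.45, SE 1.03, adjusted p 0.451).

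MAM3, which acts on a wider range of chain lengths, is the nearest relative of MAM1, with 84.7% identity over 1468 bases. It had 49.7, 38.5 and 25.6 CPM in Col at 0 h, 42.2, 29.5 and 9.61 CPM at 1 h, and 52.8, 26.1 and 14.6 CPM at 2 h. The Ler libraries had 30.1, 43.2 and 18.9 CPM, 31.0, 29.9 and 25.6 CPM, and 61.9, 33.9 and 24.0 CPM at the same times. The ecotypes overlapped at every time. The averaged log2 difference was 0.05 (SE 0.29, edgeR adjusted p 0.922). Ler is known to carry a different gene, MAM2, where Col has MAM1. Whether the Ler reads counted at MAM1 came from MAM1 sequence was not tested.

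Among the core enzymes of the aliphatic branch, CYP79F1, which converts chain-elongated methionine to aldoximes, was barely detected. It had 3, 2 and 3 reads in the Col libraries at 0 h, 4, 1 and 3 at 1 h, and 0, 1 and 2 at 2 h. Ler had 0 reads in each library at 0 h, 1, 1 and 0 at 1 h, and 2, 0 and 0 at 2 h. Summed over 9 libraries each, 19 Col reads against 4 Ler reads gave a ratio of 4.96 (exact 95% counting interval 1.65 to 20.0), which covers counting error only. DESeq2 did not call CYP79F1 in the average over times. Its close relative CYP79F2, 89.0% identical over 1360 bases, averaged 23 ± 11.8 CPM in Col and 24.2 ± 7.11 CPM in Ler (SD, n = 9), with a log2 difference of 0.09 (SE 0.31, edgeR adjusted p 0.848). CYP79F2 is known to act on long-chain substrates.

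CYP83A1, the next enzyme of the aliphatic branch, had 30.7, 37.6 and 17.6 CPM in Col at 0 h, 25.3, 10.9 and 5.08 CPM at 1 h, and 27.5, 19.1 and 7.26 CPM at 2 h. In Ler the values were 16.5, 25.4 and 9.33 CPM, 11.9, 12 and 8.44 CPM, and 25, 16.5 and 11.6 CPM. The groups overlapped throughout. Its averaged ecotype difference was a log2 of -0.37 (SE 0.31, edgeR adjusted p 0.401).

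In the indole branch, CYP79B2, which converts tryptophan to indole-3-acetaldoxime, was higher in Ler. It had 43.8, 35.6 and 64.6 CPM in Col at 0 h, 111, 70.4 and 58.1 CPM at 1 h, and 55.6, 62.2 and 53.3 CPM at 2 h. The Ler libraries had 126, 32.8 and 89.9 CPM at 0 h, 123, 68.6 and 111 CPM at 1 h, and 171, 99.9 and 137 CPM at 2 h. The ecotypes overlapped at 0 h and 1 h and were separate at 2 h. Averaged over times the log2 difference was 0.79 (SE 0.22, edgeR adjusted p 0.0121), and this call held in all 18 fits that left out 1 library. At 0 h the adjusted p was 0.178, and 0.0237 without Ler library 2, the lowest of that group. At 2 h it passed, with a log2 difference of 1.25 (SE 0.39, adjusted p 0.0397), and 6 of the 18 left-out libraries ended that call, with adjusted p from 0.051 to 0.122. These were each Col library at 2 h, Ler libraries 1 and 3 at 2 h and Ler library 3 at 0 h. The interaction did not pass at 2 h (log2 0.46, SE 0.54, adjusted p 0.657), so the ecotype difference at 2 h was not shown to exceed that at 0 h.

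CYP83B1, which oxidises indole-3-acetaldoxime, had the highest level of the 10 genes and no call. It ranged from 121 to 392 CPM in Col, with a median of 226, and from 88.4 to 331 CPM in Ler, with a median of 224 (9 libraries each). The averaged log2 difference was -0.15 (SE 0.23, edgeR adjusted p 0.653).

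**Figure D2:**
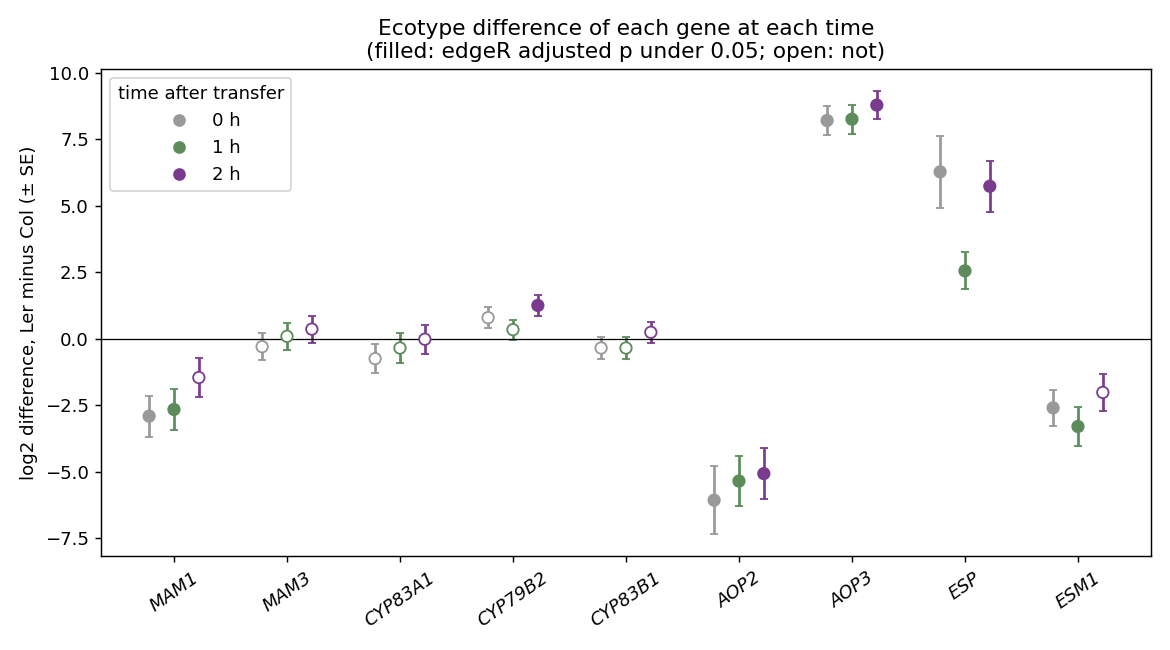
Points are fitted log2 differences, Ler minus Col, for the 9 genes tested, with SE, at 0 h, 1 h and 2 h after transfer. Filled points passed an edgeR adjusted p of 0.05 and open points did not. AOP3 sits between 8.20 and 8.78 and AOP2 between -6.07 and -5.07, values that depend on the fit's handling of near-zero counts, while MAM3, CYP83A1 and CYP83B1 lie between -0.75 and 0.36 and passed at no time.

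AOP2 and AOP3 encode 2-oxoglutarate-dependent dioxygenases that modify the side chain of aliphatic glucosinolates. The AOP2 enzyme makes alkenyl and the AOP3 enzyme hydroxyalkyl forms. As given above, RefSeq classes AOP2 in the Col reference as a transcribed pseudogene, and no enzyme or compound was measured here. AOP3 had 4.55, 7.36 and 5.17 CPM in Ler at 0 h, 5.44, 4.73 and 5.46 CPM at 1 h, and 7.99, 7.13 and 8.10 CPM at 2 h. In Col, 6 of 9 libraries had 0 reads and the other 3 had 1 read each. Every Ler library was thus far above every Col library. Over 9 libraries per ecotype there were 1473 reads in Ler and 3 in Col, a depth-scaled ratio of 470 (exact 95% counting interval 161 to 2284). The edgeR adjusted p was 6.96e-12 for the average over times. AOP3 was 1 of 24 features, or 0.0731% of 32852, with at most 3 reads over the Col libraries and a mean of at least 5 CPM in Ler.

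AOP2 showed the opposite order at a lower level. It had 11, 6 and 5 reads in the Col libraries at 0 h, 27, 14 and 14 at 1 h, and 14, 25 and 8 at 2 h. Ler had 1 read in 1 library at 1 h, 1 read in 1 library at 2 h and 0 in the other 7. The ecotypes did not overlap at any time. At 0 h, AOP2 was at least 8.74-fold higher in Col, against a floor of 3 counts over the Ler group. Over all times, 124 Col reads against 2 Ler reads gave a depth-scaled ratio of 64.7 (exact 95% counting interval 17.5 to 540), and the edgeR adjusted p was 7.53e-06. AOP2 and AOP3 share 74.1% identity over 1056 bases, with no stretch of 100 bases at 95% or more. Their promoter windows above held no G-box.

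ESP and ESM1 act on the breakdown side. ESP, the epithiospecifier protein, directs the product towards epithionitriles and nitriles. It had 12, 10 and 8 reads in Ler at 0 h, 30, 18 and 13 at 1 h, and 33, 19 and 18 at 2 h. Col had 0 reads in all 3 libraries at 0 h, then 3, 7 and 0 at 1 h, and 0, 0 and 1 at 2 h. All Ler libraries, from 0.291 to 1.25 CPM, exceeded all Col libraries, from 0 to 0.257 CPM. At 0 h ESP was at least 8.39-fold higher in Ler, against a floor of 3 counts over the Col group. Over all times, 161 Ler reads against 11 Col reads gave a depth-scaled ratio of 14 (exact 95% counting interval 7.63 to 28.7), with an edgeR adjusted p of 1.83e-05. The ratio was 6.07 at 1 h (3.08 to 13.3), where the call was lost without Col library 1 or Ler library 1 of that time (edgeR adjusted p 0.0759 and 0.0868) and in a fit of the 1 h libraries alone (adjusted p 0.104). ESP shares 95.5% identity over 312 bases with AT3G29634, so reads in that stretch are uncertain, although AT3G29634 had 0 counts in all 18 libraries.

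ESM1, the epithiospecifier modifier, favours isothiocyanates over nitriles. It had 0.700, 0.738 and 0.826 CPM in Col at 0 h, 0.980, 0.771 and 0.541 CPM at 1 h, and 0.540, 0.664 and 0.461 CPM at 2 h. The Ler libraries had 0, 0.138 and 0.219 CPM, 0, 0.0388 and 0.173 CPM, and 0.227, 0.120 and 0.0438 CPM. All Col libraries were above all Ler libraries. Averaged over times the log2 difference was -2.64 (SE 0.41, edgeR adjusted p 0.000116), and the depth-scaled count ratio was 6.26 (156 reads against 26, exact 95% counting interval 4.12 to 9.89). It passed at 0 h (adjusted p 0.0167) and 1 h (adjusted p 0.00605). At 2 h the log2 difference was -2.02 (SE 0.70) with an adjusted p of 0.0656 in edgeR and 0.0216 in DESeq2. In edgeR it passed without Ler library 1 of 0 h (adjusted p 0.0351) and in a fit of the 2 h libraries alone (adjusted p 0.0468). The 0 h call was lost without Ler library 2 (adjusted p 0.0528). Thus ESP was higher in Ler and ESM1 higher in Col at the transcript level, and neither exceeded 1.25 CPM in any library.

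At single times, the 5 genes past the threshold at 0 h were AOP3, ESP, AOP2, ESM1 and MAM1, where 17.7% of all features passed. The same 5 passed at 1 h, where 14% of all features did. At 2 h AOP3, ESP, AOP2 and CYP79B2 passed, where 15.8% of all features did. Neither interaction, the difference of the ecotypes' changes at 1 h or 2 h, passed for any of the 9 genes in edgeR. The count at an unadjusted p under 0.05 was also 0 for both, as was the count in DESeq2, which gave no adjusted p at 2 h for AOP2, ESP, ESM1 and CYP79F1. Over all features the interactions called 0.00485% and 0%.

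Few of these genes passed the test with time after transfer. In edgeR 0 of 9 passed in Col at 1 h, where 11.1% of all features did, and 0 at 2 h, where 6.39% did. In Ler 0 passed at 1 h (6.82% of all features) and 0 at 2 h (2.80%). At an unadjusted p under 0.05 the counts in that order were 1, 0, 0 and 1, the gene being ESP each time, and DESeq2 called 1, 0, 0 and 0, with no adjusted p for CYP79F1 in each. The DESeq2 call was ESP in Col at 1 h (adjusted p 0.0364), which edgeR also called without Col library 3 of that time (adjusted p 0.018, 0.0754 with it). Averaged over ecotypes at 1 h, ESP rose, where 19.8% of all features passed, with an edgeR adjusted p of 0.0274. That call rests on few reads: from 0 to 10 over the Col group and from 30 to 61 over the Ler group. It was lost without Col library 1 or 3 of 0 h or Col library 2 of 1 h, with adjusted p of 0.0566, 0.0558 and 0.114. At 2 h the averaged comparison called 0 of 9 genes, against 8.63% of all features, with 0 at an unadjusted p under 0.05 and 0 in DESeq2. CYP83A1 had the lowest group means at 1 h in both ecotypes, 13.8 ± 10.4 CPM in Col and 10.8 ± 2.04 CPM in Ler (SD, n = 3), with an averaged log2 change of -0.86 (SE 0.38, adjusted p 0.138). Without Col library 1 of 1 h, the highest of that group, it passed (adjusted p 0.0226), as did the change within Col (adjusted p 0.0415, 0.244 with it). With the library number as a block, more of these genes passed at 1 h, CYP83A1 among them, as given in the closing section.

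Some genes of a branch varied together across libraries. After each ecotype mean was subtracted from log2 CPM, MAM3 and CYP83A1 had a Pearson correlation of 0.91 over 18 libraries. The value was 0.89 for MAM1 and MAM3 and 0.79 for MAM1 and CYP83A1. In the indole branch, CYP79B2 and CYP83B1 had a correlation of 0.84. MAM1, MAM3 and CYP83A1 had values of -0.18 to 0.11 with CYP79B2 and CYP83B1. Of the side-chain genes, AOP2 had values of 0.04 to 0.11 and AOP3 of 0.21 to 0.32 with MAM1, MAM3 and CYP83A1. AOP2 and AOP3 had -0.02 with each other. However, AOP2 had at most 1 read in each Ler library and AOP3 at most 1 in each Col library. Each was nearly flat where the other varied, so their values cannot show whether the side-chain genes vary with the branch. All these correlations are descriptions over libraries that share depth, times and library numbers, and no p is given.

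Which library number was lowest differed among the genes. For MAM3 and CYP83A1 the library numbered 3 was the lowest of its group in all 6 groups, as it was for 2.14% of 15285 features with a mean of at least 5 CPM. For CYP83B1 the library numbered 2 was lowest in 5 of 6 groups, where 11.5% of features had number 2 lowest in 5 or 6. CYP79B2 had number 2 lowest in 4 of 6. Of the other aliphatic synthesis genes, 4 of 15 had number 3 lowest in 5 or 6 groups, against 8.01% of features, 2 of 15 (SOT17 and FMO_GS-OX5) had number 2 lowest that often and 1 (BCAT3) had number 1, against 15% of features. Of the other indole and shared core genes, 3 of 13 had number 2 lowest that often and 0 had number 3 or number 1. Of the regulators and transporters, 5 of 12 had number 2 lowest, the aliphatic activator MYB28 among them, and 2 (MYC2 and OBP2) had number 3. Of 11 breakdown genes, 2 (PEN2 and NIT2) had number 2 lowest and 1 had number 1. The lowest number therefore did not follow the branches throughout. What the numbers stand for is not given in the sources used here. Green-shoot markers summed to 36.3 to 148 CPM in libraries numbered 1, 20.5 to 84.5 CPM in those numbered 2 and 22.4 to 73.9 CPM in those numbered 3. Of 9 root apex markers, PLT2, SCR and SMB had number 1 lowest in 5 of 6 groups and CASP1 had number 2 lowest in 5. The part of these markers in the differences between numbers was not tested.

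**Figure D3:**
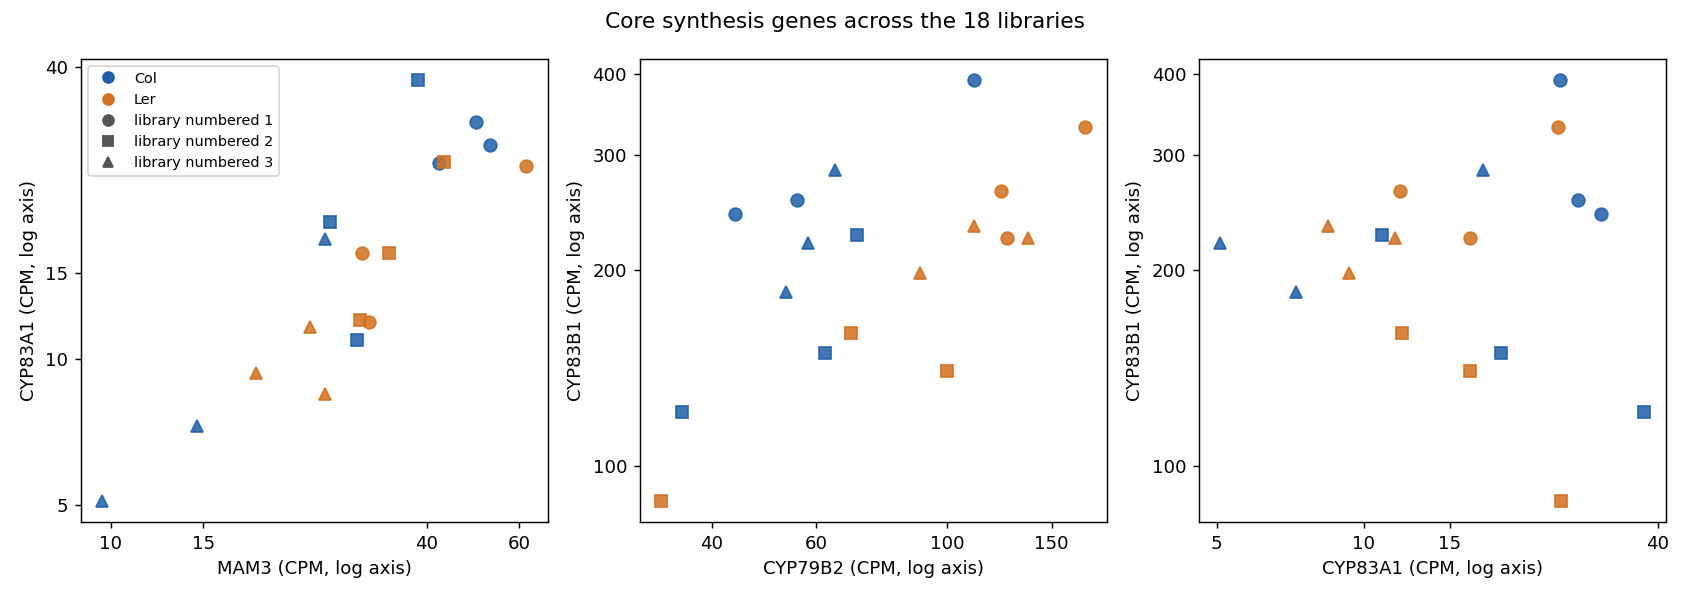
Each point is 1 of 18 libraries, coloured by ecotype and shaped by library number, with CPM on log axes. MAM3 and CYP83A1 rise together with the libraries numbered 3 at the low end, CYP79B2 and CYP83B1 rise together with libraries numbered 2 low, and CYP83A1 shows no such relation with CYP83B1.

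The features most like each gene were taken as the 2 with the highest correlation over the 18 libraries after the ecotype means were subtracted, among about 15285 features with a mean of at least 5 CPM. For MAM1 these were MAM3 (0.894) and BCAT4 (0.840), the aminotransferase that starts methionine chain elongation. For MAM3 they were IPMDH1 (0.946), the dehydrogenase of the same elongation cycle, and CYP83A1 (0.911). CYP83A1 was most like DJ1F (0.915) and MAM3 (0.911). CYP79B2 was most like CYP79B3 (0.850), which carries out the same reaction, and SOT16 (0.849), a sulfotransferase of the final core step. CYP83B1 was most like AT1G30700 (0.917) and APK (0.912), an adenylyl-sulfate kinase that supplies the sulfate donor for that step. For the low genes the highest values were smaller or fell on genes of other kinds. ESP was most like ISU1 (0.885) and PUB14 (0.884), AOP3 like MES15 (0.710) and ATERDJ3A (0.696), AOP2 like AT5G04520 (0.726) and AT4G36660 (0.715), and ESM1 like AT5G24390 (0.736) and OTS2 (0.693). Among the 100 most alike features, 7 were listed glucosinolate genes for MAM1, 6 for MAM3, 6 for CYP83A1, 5 for CYP83B1 and 3 for CYP79B2. The number was 2 for AOP3, 1 each for AOP2 and ESP and 0 for ESM1.

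The rest of the pathway was described by 4 lists holding 64 other genes, of which 56 passed the filter. In the ecotype comparison averaged over times, 4 of 19 aliphatic synthesis genes tested were higher in Ler and 3 lower, with a median log2 difference of 0.08. Over all features 16.5% were higher and 16.1% lower, and the median was 0.00. Of 14 indole and shared core genes, 1 was higher and 4 lower (median -0.17). Of 12 regulators and transporters, 0 were higher and 2 lower (median -0.18). None of the 12 had a log2 difference above 0, 4 had an unadjusted p under 0.05, and DESeq2 called 4. Of 11 breakdown genes, 4 were higher and 4 lower (median -0.22). The order of the 12 regulators and transporters was not the same at every time. At 0 h 1 of them was above 0 (median -0.34), at 1 h 0 (median -0.32) and at 2 h 7 (median 0.13).

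Of the 4 lists, breakdown genes spanned the widest range of log2 differences. NSP3, a nitrile specifier protein, was lower in Ler, at 7.16 ± 3.11 CPM against 50.2 ± 30.0 CPM in Col (SD, n = 9), a log2 difference of -2.77 (SE 0.33, edgeR adjusted p 7.03e-06) with no overlap. Its relative NSP4 was higher in Ler, at 438 ± 86.7 against 233 ± 61.2 CPM, a log2 difference of 0.90 (SE 0.14, adjusted p 0.000126). NSP1 shares 90.1% identity with NSP3 over 1591 bases and 90.6% with NSP4 over 1641 bases, so reads may be split among them. The nitrilase genes NIT1 and NIT2, whose products hydrolyse nitriles, were lower in Ler. NIT1 had 367 ± 94.9 CPM in Col and 101 ± 34.5 CPM in Ler (log2 -1.86, SE 0.21, adjusted p 4.89e-06) with no overlap, and NIT2 had a log2 difference of -1.26 (SE 0.36, adjusted p 0.0137). NIT1 and NIT2 are 90.0% identical over 836 bases. The classical myrosinase genes TGG1 and TGG2 had 1 and 2 reads over all 18 libraries. The root myrosinases TGG4 and TGG5 averaged 385 and 364 CPM in Col and 362 and 293 CPM in Ler, but are 95.3% identical over 1776 bases, so their split is uncertain.

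On the synthesis side, AOP1, a neighbour and relative of AOP2 and AOP3, was higher in Ler, at 5.07 ± 1.60 against 2.09 ± 0.781 CPM (log2 1.30, SE 0.20, edgeR adjusted p 0.000104). CYP79B3, the partner of CYP79B2, was also higher in Ler, at 75.9 ± 33.5 against 33.6 ± 9.73 CPM (log2 1.16, SE 0.26, adjusted p 0.00223). CYP79B2 and CYP79B3 are 81.3% identical over 1635 bases. Among regulators, MYB28, an activator of the aliphatic branch, averaged 22.9 ± 6.83 CPM in Col and 16.5 ± 7.39 CPM in Ler (log2 -0.51, SE 0.21, adjusted p 0.0803). MYB29 and MYB76, the other activators of that branch, had 0 counts in all 18 libraries.

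**Figure D4:**
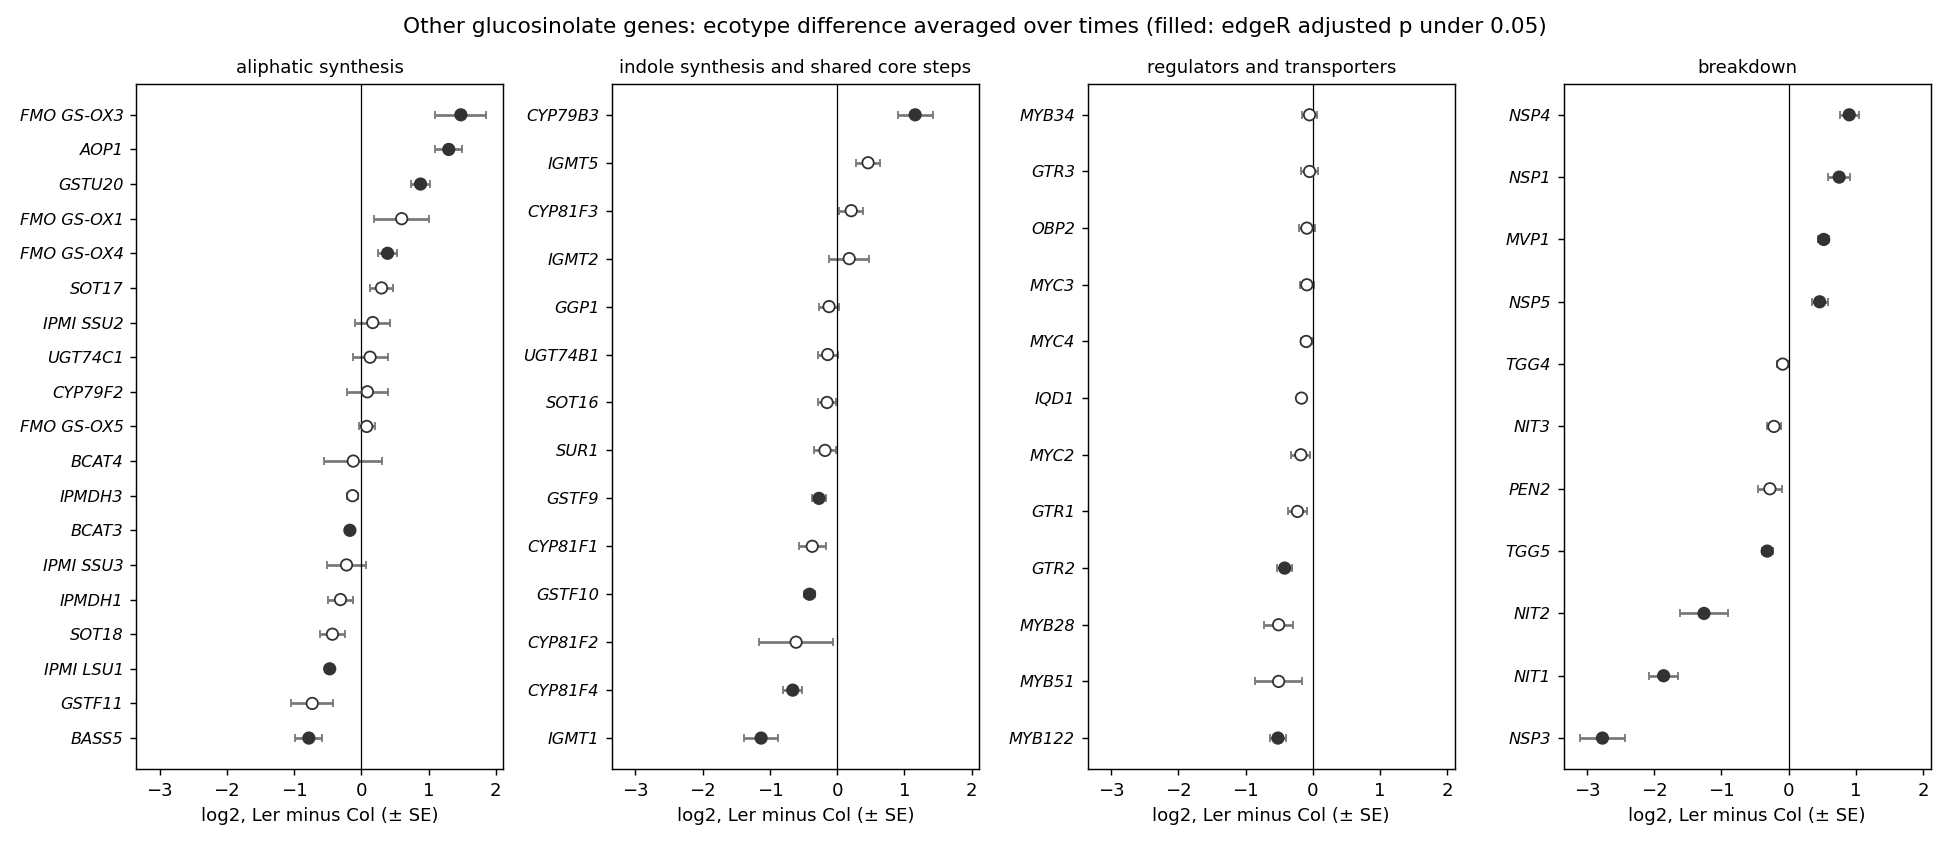
Points are log2 differences, Ler minus Col averaged over times, with SE, for the 56 other glucosinolate genes tested, grouped in 4 lists. Filled points passed an edgeR adjusted p of 0.05. NSP3 at -2.77 and NIT1 at -1.86 are the lowest. The 12 regulators and transporters all lie below 0 in this average, although 7 were above 0 at 2 h alone.

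Several pathway genes outside the 10 loci changed after transfer. At 1 h averaged over ecotypes, 3 of 12 regulators and transporters rose and 4 fell, against 9.76% and 10.0% of all features. MYB34, an activator of the indole branch, fell from 109 ± 8.02 to 41.3 ± 11.5 CPM in Col and from 85.2 ± 15.6 to 41.2 ± 6.79 CPM in Ler (SD, n = 3), a log2 change of -1.23 (SE 0.14, edgeR adjusted p 1.56e-05). At 2 h MYB34 stood at 100 ± 16.8 and 117 ± 13 CPM. GTR3, a glucosinolate transporter, fell by 0.90 on the log2 scale (SE 0.15, adjusted p 0.000437). OBP2, a DOF-type regulator, rose by 1.13 (SE 0.15, adjusted p 9.66e-05). In the enzyme lists, 1 of 19 aliphatic, 2 of 14 indole and shared core and 2 of 11 breakdown genes rose, and 0 fell. GGP1, a peptidase that trims the glutathione conjugate in the core pathway, rose from 149 ± 17.7 to 522 ± 248 CPM in Col and from 116 ± 23.3 to 397 ± 75.1 CPM in Ler. Its log2 change was 1.79 (SE 0.19, adjusted p 9.89e-06).

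At 2 h averaged over ecotypes, 2 aliphatic, 3 indole and shared core, 1 regulator and 0 breakdown genes rose and 0 in any list fell, against 4.31% and 4.32% of all features. GGP1 was again above 0 h (log2 0.95, SE 0.19, edgeR adjusted p 0.00461). CYP81F4, which modifies the indole ring, rose from 430 ± 16.1 to 615 ± 114 CPM in Col and from 241 ± 49.0 to 495 ± 118 CPM in Ler (log2 0.78, SE 0.17, adjusted p 0.0103). The enzymes CYP79B2 and CYP83B1 had averaged log2 changes at 2 h of 0.48 (SE 0.27, adjusted p 0.337) and 0.15 (SE 0.28, adjusted p 0.818).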

How the data were processed

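Poly(A)-selected, stranded, paired-end RNA libraries of 18 samples were analysed. The authors deposited raw read counts per locus, 1 table per library. The submitters' processing notes name TopHat2, Bowtie2 and the build TAIR10. The counting tool, the annotation and the treatment of reads matching several loci are not given in the sources used here. Of 33602 features listed for Col, 32852 were listed for every library and used. Groups were taken from the sample titles.

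Counts were fitted with edgeR 4.0.16 (limma 3.58.1, R 4.3.3): filterByExpr (minimum count 10, minimum total 15; 20599 features kept), TMM scaling, 1 mean per group over all 18 libraries (12 residual degrees of freedom), and quasi-likelihood tests of 12 contrasts. The p-values were Benjamini-Hochberg adjusted within each contrast over all features, with a threshold of 0.05. CPM uses TMM-scaled library sizes, and log2 CPM a prior count of 2. The fit was tested on simulated data. Count intervals are exact at 95%.

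The 10 genes and the other lists were chosen with earlier results of these data known. Other pathway genes were named by rule: the 3 largest called differences each way between ecotypes and the 2 largest each way at 1 h and 2 h, for genes averaging 5 CPM or more in some group. CYP79F2, MYB28, TGG1, TGG2, TGG4, TGG5, NSP1, MYB29 and MYB76 were named after their values were seen. So were SOT17, FMO_GS-OX5, BCAT3, MYC2, PEN2, PLT2, SCR, SMB and CASP1, named for their lowest library number or level. Alternatives were RLE size factors, DESeq2 1.42.0, no filter, a mean of at least 1 CPM, a replicate block, only the libraries contrasted, and each library left out.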

Additional observations from a re-analysis of the deposited data

How the results depend on the processing

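Counts are of the 10 genes past an edgeR adjusted p of 0.05. A minimum mean of 1 CPM removed AOP2, ESP and ESM1, leaving 6 genes tested, and gave 2 calls at 0 h, 2 at 1 h, 2 at 2 h and 3 averaged over times between ecotypes (5, 5, 4 and 6 without it), and 0 at 1 h against 0 h averaged over ecotypes (1 without it). The 0 h ecotype count was 3 in a fit of only those libraries, where 7 genes were tested. DESeq2 called 1 gene, ESP, at 1 h in Col (0 in edgeR). Leaving out 1 library at a time gave 4 to 5 at 0 h, 3 to 5 at 1 h, 3 to 5 at 2 h and 6 to 6 averaged between ecotypes, 0 to 1 at 1 h in Col, 0 to 2 at 1 h averaged over ecotypes, and 0 to 0 in the other time and interaction contrasts. The ecotype count at 1 h was 3 without Col library 1 or Ler library 1 of that time. RLE size factors and no filter changed no call of the 9 genes, and no direction of a called value reversed in any alternative run.

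Equal replicate numbers are not said to share a culture, so the numbers were not taken as pairs in the main fit. Their deviations from the group means had correlations of 0.00574 to 0.575 over 45 pairs (median 0.38), of which 41 were over 0.1. Libraries of different numbers had correlations of -0.596 to 0.336 over 90 pairs (median -0.206), of which 11 were over 0.1. As a hint from the data, 18 of 18 libraries correlated best with their own number. With the number as a replicate block, 2 genes passed at 1 h in Col (ESP, adjusted p 0.0484, and CYP83A1, log2 -1.21, adjusted p 0.0117) and 3 at 1 h averaged over ecotypes (ESP, CYP83A1 with log2 -0.90 and adjusted p 0.00577, and CYP83B1 with adjusted p 0.0323), and ESM1 passed at 2 h between ecotypes (adjusted p 0.046).

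Depth limits the low genes: AOP2, ESP, ESM1 and CYP79F1 had at most 33 reads in any library, so small changes in them were not detectable at this depth.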
